A study of Mus musculus and Acomys cahirinus with 25 samples.

Results

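Hair keratins and the keratin-associated proteins that crosslink them were followed through wounded and unwounded dorsal skin of laboratory and spiny mice. The set was defined by gene name and not by measured values, although earlier results of these data were known when it was chosen. It took every counted symbol beginning with Krtap, a list of 25 keratins of the hair shaft, the inner root sheath and the companion layer, and 4 partner genes (Tchh, Tchhl1, Padi3 and Prr9). Of the 24500 genes counted, 82 were members, namely 54 Krtap genes and 28 of the 29 listed genes. Krt85 was not analysed here.

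The study asked how wounded skin makes new hair follicles, a response that in laboratory mice is seen at the center of a large wound and in spiny mice over the whole wound bed. RNA of 25 libraries was sequenced from dorsal epidermis or dermis that had been parted from each other. All laboratory mouse libraries (Mus musculus) came from post-wound day 14 (PWD14), with 2 wild-type (WT) libraries of the wound center and 2 of the wound margin in epidermis, and 5 of the center and 2 of the margin in dermis. A further 2 center dermis libraries came from K14-Cre-Twist1 mice (KO), in which Cre under a keratin 14 promoter deletes Twist1 in keratinocytes and therefore not in most cells of the dermis. The center was cut out with a biopsy punch and the rest of the wound was taken as margin. The methods give the age at wounding as 4 weeks for laboratory mice and 8 weeks for spiny mice. Laboratory wild types were C57BL/6J mice, or Twist1+/+ mice as controls of the transgenic mice. The 12 wild-type spiny mouse (Acomys cahirinus) libraries held unwounded skin (PWD0) and whole wounds of PWD14, PWD21 and PWD28. These days are those of the labels, and a sample table of the study gives slightly different wound days for the spiny mouse libraries. Epidermis had 1, 2, 2 and 1 library at these days and dermis had 2, 1, 2 and 1. No treatment was applied to any of these animals, and nothing in the labels says which libraries came from the same animal, so p-values measure only the spread between these libraries. Center dermis libraries 1 and 2 were compared with the margin and libraries 3 to 5 with KO, a split taken from the library names of the study.

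Hair is built from keratin filaments set in a matrix. Type I and type II keratins pair to form the filaments, and separate pairs of them are made in the cortex and cuticle of the shaft, in the inner root sheath that moulds it, and in the companion layer that divides the inner from the outer root sheath. Keratin-associated proteins, rich in cysteine or in glycine and tyrosine, form the matrix of the shaft and link its filaments by disulfide bonds. Trichohyalin (Tchh) is the matching matrix protein of the inner root sheath and medulla, and Padi3 converts its arginines to citrulline before it is crosslinked. These genes are switched on late, in growing follicles, and are mostly silent in resting ones.

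The members lay in a few genomic clusters. On mouse build GRCm38 (mm10), chromosome 11 from 99315516 to 100109487 held 35 of them, which were 22 Krtap genes and 13 type I keratins. Chromosome 16 from 88610709 to 89571183 held 23 Krtap genes, chromosome 7 from 142174532 to 142304503 held 5, and chromosome 10 held 3. Chromosome 15 from 101431490 to 101802360 held 11 type II keratins. The keratins comprised 9 of type I and 6 of type II of the hair shaft, 4 of each type of the inner root sheath, and Krt75 of the companion layer and medulla.

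RefSeq promoter windows (GRCm38.p6), here the 250 bases before the start of transcription, were at hand for 70 of the 82 members. For shaft keratins of each type, type II inner root sheath keratins and keratin-associated proteins, the most abundant member with a window was taken. Abundance was the mean level over the 13 laboratory mouse libraries. In type II shaft keratins this was Krt82, whose window held none of the letters marked below and is not printed. The other 3 windows are printed: Krt34, a type I keratin of the hair cortex, Krt71, a type II keratin of the inner root sheath, and Krtap8-1. They lie on the minus strand at chr11:100041555-100041804, chr15:101743098-101743347 and chr16:89487953-89488202 and are written 5′ to 3′ along the gene. Capitals mark CTTTGAA, which contains CTTTGA, the core that LEF1 and TCF proteins recognise, and TATAAA, the TATA box.
Krt34: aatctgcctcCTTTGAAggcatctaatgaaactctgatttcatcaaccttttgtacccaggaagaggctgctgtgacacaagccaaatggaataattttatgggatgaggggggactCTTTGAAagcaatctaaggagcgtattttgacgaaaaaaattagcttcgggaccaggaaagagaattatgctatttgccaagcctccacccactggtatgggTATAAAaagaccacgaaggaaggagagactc
Krt71: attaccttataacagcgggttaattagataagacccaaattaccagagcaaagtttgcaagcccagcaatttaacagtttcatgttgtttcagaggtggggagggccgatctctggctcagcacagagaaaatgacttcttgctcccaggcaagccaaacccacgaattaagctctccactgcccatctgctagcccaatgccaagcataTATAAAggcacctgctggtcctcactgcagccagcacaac
Krtap8-1: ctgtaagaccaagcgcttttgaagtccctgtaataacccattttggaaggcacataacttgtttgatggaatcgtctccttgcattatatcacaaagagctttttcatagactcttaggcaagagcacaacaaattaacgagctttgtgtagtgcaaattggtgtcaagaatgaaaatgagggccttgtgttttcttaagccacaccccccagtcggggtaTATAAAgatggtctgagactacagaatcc
In Krt34 the CTTTGAA letters began 240 and 133 bases before the start and TATAAA 31 bases before it. TATAAA began 40 bases before the start in Krt71 and 29 bases before it in Krtap8-1. On the sense strand and beginning 35 to 16 bases before the start, TATAAA stood in 35 of the 70 members' windows (50%), against 603 of all 32817 promoter windows (1.84%). On either strand and anywhere in the window the shares were 75.7% and 12.4%. CTTTGA, searched on both strands, was found in 19 of the 70 windows (27.1%) against 13.8% of all windows, and in 5 of the 7 windows of type I hair shaft keratins. The members of a cluster are related copies, so their windows are not independent of one another. A match of letters is a description of the sequence and not a measured binding site.

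Each laboratory mouse library held 19413261 to 86532134 reads assigned to genes, and each spiny mouse library 5669760 to 34751956. Levels are given as CPM, counts scaled to a library total of 1000000, with TMM, a factor that balances library composition, computed separately for each species and tissue. Levels of different sets are given side by side only, and where tissues were tested against each other the libraries compared were scaled together in that fit. A count of 3 reads corresponded to 0.0343 to 0.154 CPM in laboratory mice and 0.0840 to 0.585 CPM in spiny mice, for counting error only. Spiny mouse reads were aligned to the mouse genome. Reads set aside for low mapping quality, which include reads that fit several places, made up 23.3% to 34.4% of laboratory mouse and 38.0% to 60.5% of spiny mouse reads, so values of near-identical copies such as the Krtap4, Krtap5, Krtap9 and Krtap19 genes are uncertain. The tissue labels were borne out by the summed level of 14 keratinocyte genes, 31925 to 219186 CPM in epidermis and 13.2 to 37440 CPM in dermis, where the top value was 1 KO library and the rest were at 13945 CPM or lower. A list of 15 fibroblast genes summed to 968 to 6693 CPM in epidermis and 73369 to 199586 CPM in dermis. In bulk tissue, fewer cells of a type and less RNA per cell cannot be told apart.

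**Figure D1:**
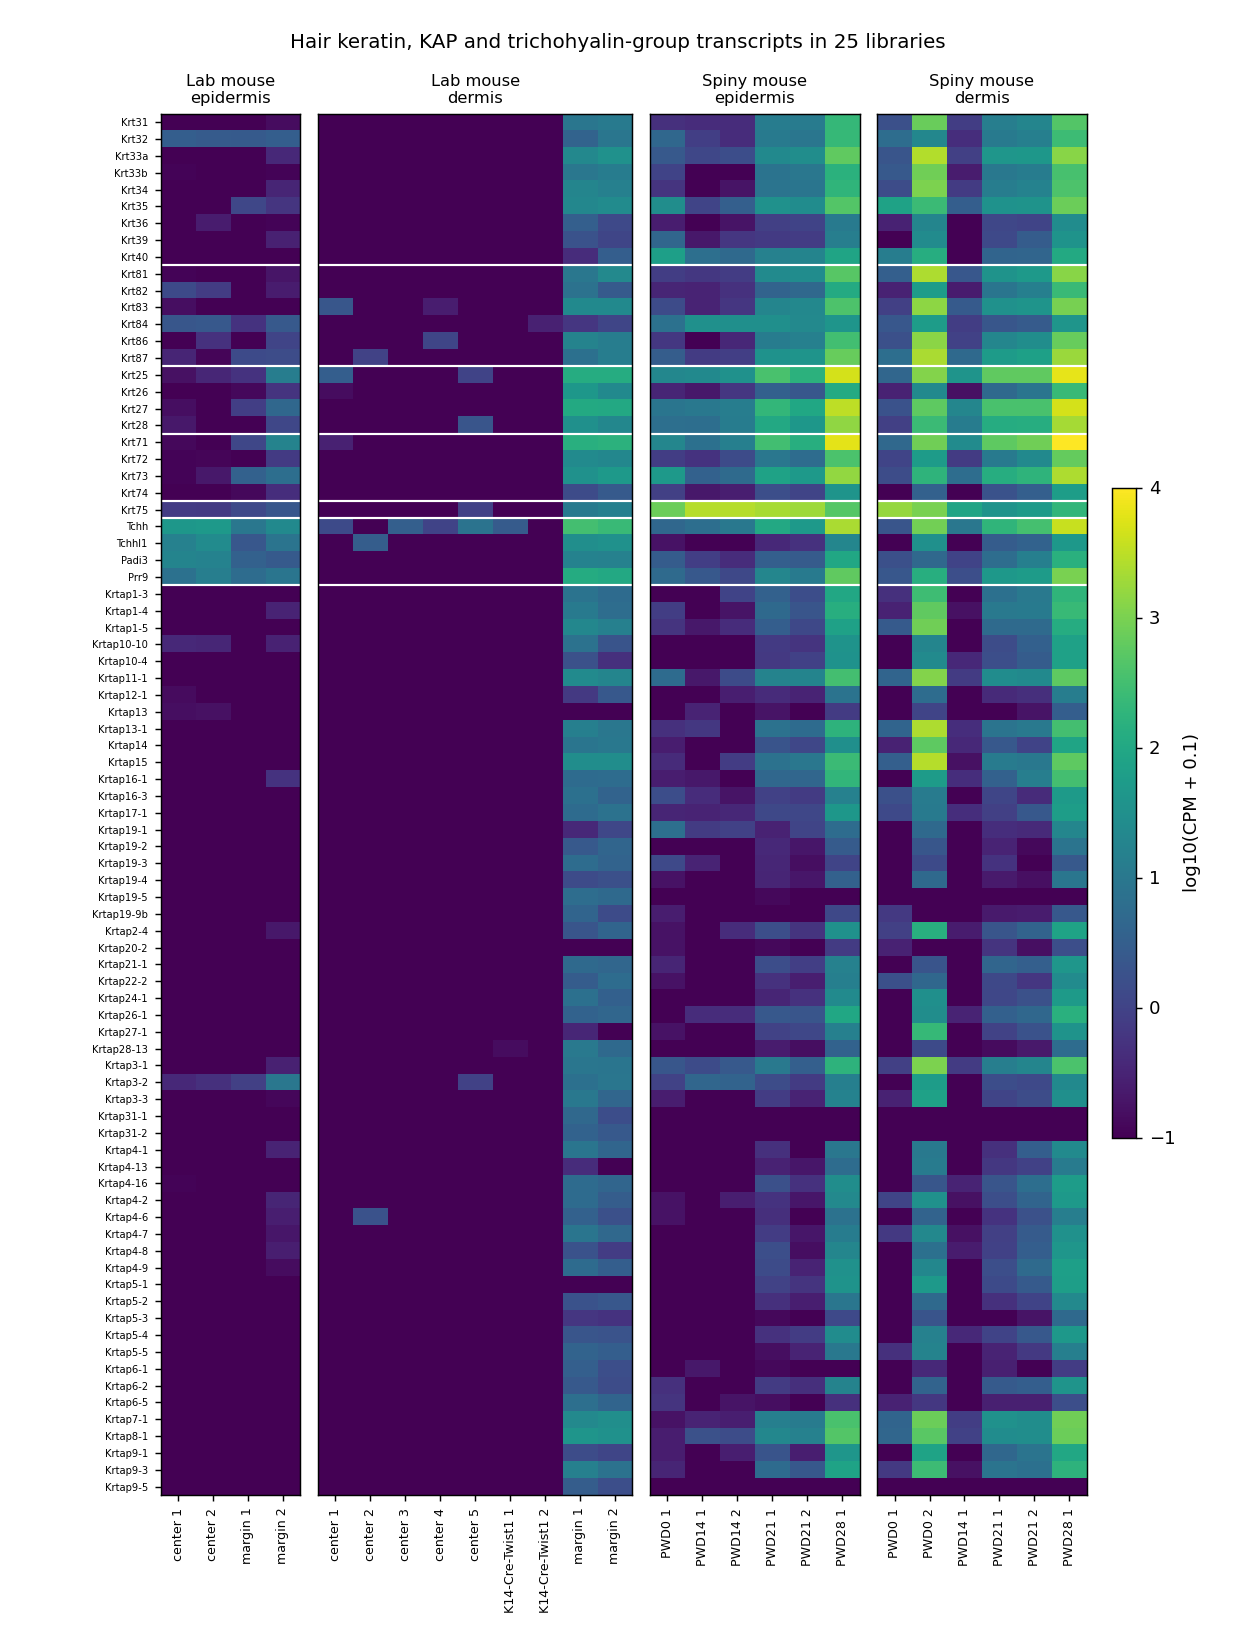
Levels of the 82 members (vertical axis, grouped by class) in the 25 libraries (horizontal axis), as the log10 of CPM plus 0.1. Members are at or near 0 in all 7 laboratory mouse center dermis libraries and high in both margin dermis libraries, in spiny mouse PWD28 of both tissues and in PWD0 dermis library 2.

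The summed level of all members differed widely between libraries. In laboratory mouse dermis it was 1532 and 1407 CPM in the margin libraries and 6.52, 5.39, 3.17, 2.11 and 12.53 CPM in the 5 WT center libraries, and the KO libraries gave 2.71 and 0.187 CPM. The margin thus held over 0.16% of its reads in these genes, and no center library came near it. Laboratory mouse epidermis gave 93 and 112 CPM in the center and 33.5 and 109 CPM in the margin, ranges that overlap. In spiny mouse epidermis the sum was 1007 CPM in unwounded skin, 2835 and 2881 CPM at PWD14, then 3780 and 2716 CPM at PWD21 and 28303 CPM at PWD28. Most of the epidermal sum before PWD28 was Krt75 alone, with 745 CPM at PWD0, 2721 and 2731 CPM at PWD14 and 2209 and 1824 CPM at PWD21. The sum therefore does not show the rise of most other members from PWD14 to PWD21, which is given below. In spiny mouse dermis, unwounded skin gave 1777 and 30645 CPM, PWD14 wounds 221 CPM, PWD21 wounds 2566 and 3166 CPM and the PWD28 wound 46207 CPM. Krt75 made up 1609 of the 1777 CPM of unwounded library 1. The PWD28 libraries were the highest of their tissue, with 3.72% of epidermal and 5.40% of dermal reads. The PWD0 dermis libraries were far apart, with library 2 close to the PWD28 level and library 1 below both PWD21 libraries, and results that rest on library 2 are given below with and without it.

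**Figure D2:**
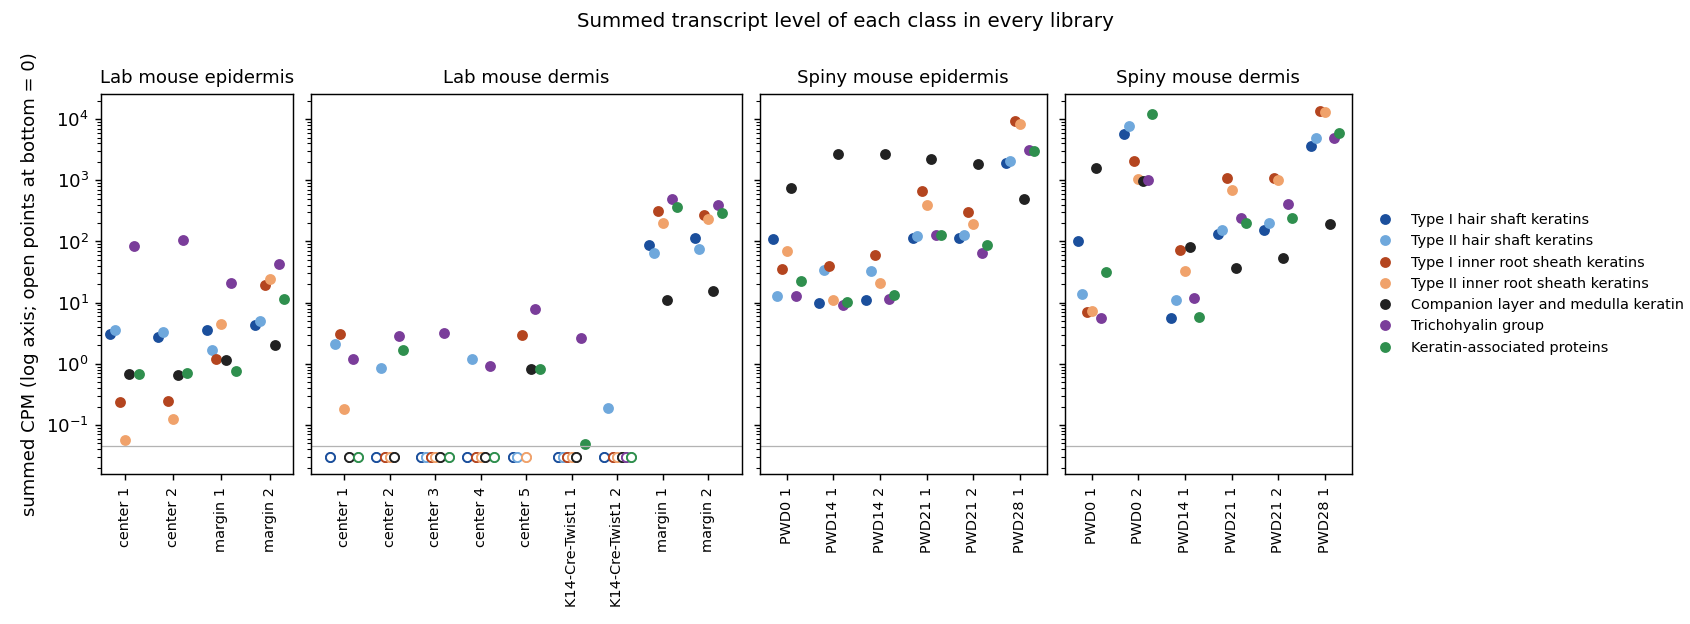
Summed CPM of each class of members (log scale) in every library, 1 point per library, with open points at the bottom for sums of 0. In spiny mice all classes other than Krt75 were highest at PWD28 or, for the hair shaft keratins and keratin-associated proteins of spiny mouse dermis, in PWD0 library 2.

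The first comparison asked whether the regenerative wound center of laboratory mice differed from the margin at PWD14. In dermis it did so throughout the set. Of the 74 members that passed the filter on low counts, 20 were lower in the center and none was higher. A call here is a Benjamini-Hochberg false discovery rate (FDR) under 0.05, taken over all genes, by the quasi-likelihood test of edgeR. Of the 14698 genes tested, 0.85% were called, 0.735% lower and 0.116% higher. At an unadjusted p under 0.05, 73 of the 74 members were lower, against 10.7% of all genes tested. Of the 79 members with a read in these 4 libraries, 76 were lower in both center libraries than in both margin libraries, against 22.9% of all genes with a read. Each of the 79 members with a read in any dermis library had its highest level in a margin library, where 21.9% of all genes had theirs. The filter kept most members only through their margin counts. In both center libraries 74 members were at 0, so the fold differences given for them are lower bounds against 3 reads in the library of the group with the higher floor, which could be set for 69. The median change of the tested members with those bounds was -5.21 on the log2 scale, against -0.03 for all genes.

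The keratins of the inner root sheath were among the most abundant members of the margin. Krt71 was at 141 and 162 CPM in the margin libraries and at 0.185 and 0 CPM in the center libraries of this comparison (log2 difference -10.58 ± 0.61 SE, FDR 3.35e-05). Krt25, a type I partner of the sheath, was at 127 CPM in each margin library and at 3.01 and 0 CPM in the center (-6.38 ± 0.52 SE, FDR 0.000222). Krt27, another type I keratin of the sheath, was at 108 and 102 CPM in the margin and had no read in any of the 7 center libraries. It was at least 700-fold lower in the center, and Krt73, at 34.4 and 51.0 CPM in the margin, was at least 285-fold lower. All 4 type I inner root sheath keratins and 3 of the 4 type II ones were called, Krt74 being the exception with 1.26 and 2.48 CPM in the margin.

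The trichohyalin group moved with the sheath keratins, and its 4 genes were all called. Tchh was at 325 and 247 CPM in the margin and at 1.2 and 0 CPM in the center (-8.86 ± 0.51 SE, FDR 8.65e-06). It was also the member found in most center libraries, with 3.17, 0.927 and 7.95 CPM in the other 3 WT center libraries. Prr9, which encodes a small proline-rich protein, was at 118 and 104 CPM in the margin and without a read in every center library, at least 740-fold lower. Per kilobase of exon, the scale on which genes can be set beside one another, the highest margin levels were 93.6 CPM per kb for Prr9, 69.1 for Krt71, 67.6 for Krt27, 64.3 for Krtap8-1, 63.9 for Krt25 and 49.1 for Tchh.

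A smaller share of the shaft genes passed the test. Krt33a, a type I keratin of the cortex, was at 21.1 and 34.4 CPM in the margin and at 0 in the center, at least 185-fold lower (FDR 0.0140). Krt34 (window printed above), at 18.9 and 14.7 CPM, and Krt35, at 20.4 and 25.9 CPM, were the only other type I shaft keratins called of 9. Krt83, a type II keratin of the cortex, was at 23.9 CPM in both margin libraries and at 2.08 and 0 CPM in the center (-4.50 ± 0.83 SE, FDR 0.0306), and it was the 1 of 6 type II shaft keratins called. This call was lost in 6 of 13 alternatives, among them DESeq2, leaving out either margin library and, at the highest FDR of 0.690, all libraries in one fit, and without center library 1, its only center library of the 2 with reads, the difference was -12.13. Of 54 keratin-associated proteins 5 were called, namely Krtap8-1, Krtap15, Krtap7-1, Krtap11-1 and Krtap1-5. Krtap8-1, a glycine- and tyrosine-rich protein, was at 40.5 and 33.3 CPM in the margin and at least 246-fold lower in the center (FDR 0.00455). Krt75 of the companion layer was at 10.9 and 15.3 CPM in the margin and at 0 in both center libraries, at least 87.4-fold lower, and missed the threshold (FDR 0.0679).

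The reads left in the center dermis fell on few members. The 5 WT center libraries had a read in 5, 3, 1, 3 and 5 members, and 12 members in all, whereas the margin libraries had one in 79 and 77. The only members without a read in the margin were Krtap13, Krtap20-2 and Krtap5-1. Other epithelial genes differed in the same direction: the 14 keratinocyte genes summed to 13.2 to 639 CPM over the 5 WT center libraries, with Dsg3 at 0, and to 2320 and 4363 CPM in the margin, and 8 of the 14 were called lower. The melanocyte list summed to 0.412 to 3.24 CPM in the center and 11.4 and 19.6 CPM in the margin. Their part in the result was not tested. Of 18 regulators of hair differentiation found (of 19 listed), only Gata3, a factor of the inner root sheath, was called (-4.12, FDR 0.0484). Of 14 other shaft and sheath genes, S100a3, a cuticle protein, and Sprr1a were called lower. The count of called members depended on the margin libraries: it was 6 without margin library 1 and 5 without margin library 2, and it rose to 35 with all 5 WT center libraries.

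In laboratory mouse epidermis the members did not move together. Only 17 of the 82 passed the filter on low counts, and 1 was called higher and 1 lower in the center, where 1.24% of all 14165 genes were called, 0.882% higher and 0.36% lower. Padi3 was at 18.1 and 16.6 CPM in the center and 3.51 and 2.48 CPM in the margin, groups that do not overlap (log2 difference 2.6 ± 0.35 SE, FDR 0.0418). Krt73, a type II keratin of the inner root sheath cuticle, was at 0.0140 and 0.106 CPM in the center and 3.48 and 6.18 CPM in the margin (-6.48 ± 0.89 SE, FDR 0.0367). At an unadjusted p under 0.05, 4 members were higher and 7 lower, against 13.1% and 10.4% of all genes tested.

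The rest of the trichohyalin group had higher values in the center without passing the adjusted test. Tchh, its substrate, was at 44.0 and 48.1 CPM in the center and 9.32 and 23.3 CPM in the margin (1.45 ± 0.42 SE, FDR 0.139). Tchhl1, which encodes a trichohyalin-like protein, was at 15.4 and 26.1 CPM in the center and 2.15 and 8.40 CPM in the margin (1.83 ± 0.59 SE, FDR 0.155). Prr9 was at 7.20 and 13.6 CPM in the center and 5.69 and 8.51 CPM in the margin, which overlap. Together with Padi3 these genes took 91.1% and 93.03% of the members' reads in the center epidermis, and 61.7% and 39.3% in the margin.

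The inner root sheath keratins of the epidermal margin came mostly from 1 library. Krt71 was at 1.05 and 16.8 CPM in margin libraries 1 and 2 and at 0.0279 and 0 CPM in the center (FDR 0.123). Krt25 followed the same order with 0.431 and 13.1 CPM in the margin and 0.0698 and 0.248 CPM in the center (FDR 0.124). Krt27 was at 0.739 and 4.53 CPM in the margin and 0.0559 and 0 CPM in the center (FDR 0.0973), and Krtap3-2 at 0.769 and 9.54 CPM against 0.279 and 0.390 CPM (FDR 0.139). Margin library 2 was thus the higher in each and had a read in 39 members, against 16 in library 1. The number of members with a read depends on depth, and library 2 held 86532134 reads on genes against 35282463 in library 1. Shaft keratins went either way and none was called. Krt82, a cuticle keratin of type II, was at 1.21 and 0.674 CPM in the center and 0 and 0.137 CPM in the margin (FDR 0.143). Krt87 was at 0.223 and 0.0177 CPM against 1.23 and 1.37 CPM (FDR 0.124), and Krt35 at 0 in both center libraries against 1.05 and 0.481 CPM (FDR 0.150), so these 3 did not overlap between regions. Of the 43 members with a read, 14.0% were higher and 23.3% lower in the center without overlap. The shares of all genes with a read were 29.5% and 23.2%. In the more abundant shaft keratins the regions overlapped. Krt32, a cuticle keratin, was at 3.04 and 2.59 CPM in the center and 2.46 and 2.999 CPM in the margin, and Krt84, known from hard epithelia such as nail, at 2.09 and 2.24 CPM against 0.431 and 2.403 CPM. Krt75 was at 0.670 and 0.656 CPM in the center and 1.17 and 2.05 CPM in the margin (FDR 0.237). Without margin library 2 the calls were 6 higher and 5 lower, without margin library 1 they were 4 and 13, and without either center library there were none. No gene of the keratinocyte list was called between regions. Fibroblast genes summed to 5706 and 6693 CPM in the center and 1073 and 3019 CPM in the margin, with 3 of 15 called higher, and their part in the result was not tested. Of the other shaft and sheath genes, Padi1, a relative of Padi3, and Sprr1a were called higher in the center.

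The center-margin difference itself was compared between the tissues in 1 fit of 8 libraries. Of 76 members tested, 5 differed at FDR under 0.05, where 3.29% of 15531 genes did, 3.21% with a higher value in epidermis, and in each the difference was less negative, or positive, in epidermis. They were Padi3 (FDR 0.00218), Prr9 (FDR 0.00218), Tchh (FDR 0.00644), Krt75 (FDR 0.0216) and Krt32 (FDR 0.0247). Only 17 members passed the filter in epidermis alone, so most of the 76 passed it here through their margin dermis counts. In both center dermis libraries 74 of the 82 members were at 0, so members could hardly differ in the other direction. For Tchh the epidermal minus dermal difference was 10.51 ± 1.31 SE on the log2 scale. It was 17.58 without dermal center library 1, which leaves the dermal center at 0, and it ranged from 8.42 to 17.58 over its alternatives, all of them called. The other 4 were at 0 in both center dermis libraries, so the sizes of their fitted differences depend on the prior count. The calls numbered 10 without epidermal margin library 2 and 3 without either epidermal center library or without dermal margin library 2. Epidermal libraries were read from both ends and dermal ones from a single end, which cannot be told apart from tissue here, except as far as it affects both regions alike.

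The KO comparison asked whether loss of Twist1 in keratinocytes altered the wound center dermis. Twist1 itself was at 76.9 and 44.6 CPM in the KO libraries and 60.8, 37.1 and 112 CPM in WT center libraries 3 to 5, the ones compared with them. These ranges overlap, and dermis does not check a deletion made in epidermis. In edgeR's quasi-likelihood test the members gave 0 calls, also 0 at an unadjusted p under 0.05, where 11.5% of genes passed, and 0 by DESeq2 and edgeR's likelihood ratio and exact tests. Of all 14163 genes, 0.0565% were called. Only Tchh passed the filter, at 2.66 and 0 CPM in KO and 3.17, 0.927 and 7.95 CPM in WT (log2 difference -1.65 ± 1.48 SE, FDR 0.649). No read fell on 79 members in either KO library and on 75 in the 3 WT libraries. With the genes at or near 0 in both genotypes, a difference was not detectable at this depth. The KO libraries differed from each other in epidermal RNA, with keratinocyte genes summing to 1069 and 37440 CPM and Krt14 and Krt6a called higher than in WT, yet the library with more of it held 4 reads of members in all, on Krt84.

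In spiny mouse wound epidermis the hair genes were far higher at PWD21 than at PWD14. Of 47 members tested, 41 were lower at PWD14 and 2 higher, against 23.2% lower and 23.4% higher among 12889 genes. Many of the 47 passed the filter only through their PWD21 counts, so they could hardly be called in the other direction. Of the 14 members with at least 10 counts in every library, 11 were called lower and 1 higher. The median log2 difference, PWD14 minus PWD21, was -3.81 as fitted and -3.25 with genes at 0 set to their bounds, and -0.04 for all genes. Of the 78 members with a read, 63 were lower in both PWD14 libraries than in both PWD21 libraries, against 34.5% of all genes with a read.

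The change took in sheath and shaft alike. Krt71 was at 6.99 and 14.2 CPM at PWD14 and 312 and 138 CPM at PWD21 (log2 difference -4.37 ± 0.41 SE, FDR 5.17e-05). Krt25 was at 23.0 and 34.2 CPM against 366 and 161 CPM (-3.18 ± 0.35 SE, FDR 8.41e-05). All 8 inner root sheath keratins were called lower at PWD14, and so were Tchh, at 6.24 and 9.86 CPM against 106 and 50.2 CPM (-3.25 ± 0.37 SE, FDR 9.35e-05), Padi3 and Prr9. Of the PWD21 libraries, library 1 was the higher in these genes, and neither overlapped with PWD14.

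Most shaft keratins changed in the same direction. Krt35, one of the earliest keratins of the hair matrix, was at 0.968 and 3.12 CPM at PWD14 and 33.5 and 27.3 CPM at PWD21 (-3.81 ± 0.37 SE, FDR 5.27e-05). Krt34 was at 0 and 0.0843 CPM against 8.29 and 8.67 CPM (-7.28 ± 0.79 SE, FDR 6.70e-05). Krt33b, a cortex keratin, had no read at PWD14 and 7.87 and 9.41 CPM at PWD21, at least 26.8-fold lower at PWD14 (FDR 0.000123). Krt86, of type II, was at 0 and 0.253 CPM against 12.3 and 14.9 CPM (-6.50 ± 0.65 SE, FDR 5.17e-05). In all, 8 of 9 type I and 5 of 6 type II shaft keratins were called lower.

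The matrix proteins followed where they could be tested, which was 20 of 54, with 17 called lower and Krtap3-2 called higher. Krtap8-1 was at 1.61 and 1.35 CPM at PWD14 and 20.7 and 15.9 CPM at PWD21 (-3.63 ± 0.38 SE, FDR 6.49e-05). Krtap9-3 had no read at PWD14 and 5.43 and 2.31 CPM at PWD21, at least 12-fold lower at PWD14 (FDR 0.00192). Krtap16-1 was at 0.108 and 0 CPM against 4.67 and 4.36 CPM (-6.39 ± 0.93 SE, FDR 0.000294). Krtap3-2 went the other way, at 4.30 and 3.79 CPM against 1.37 and 0.631 CPM (1.89 ± 0.47 SE, FDR 0.00708).

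Krt75 and Krt84 stood outside this change. Krt75 was at 2721 and 2731 CPM at PWD14 and 2209 and 1824 CPM at PWD21 (0.45 ± 0.16 SE, FDR 0.0425), and Krt84 at 32.5 and 30.5 CPM against 30.5 and 22.3 CPM (0.26 ± 0.22 SE, FDR 0.352). Without TMM, scaling by library size alone moved the median of all genes by -0.55 and gave -0.10 for Krt75 and -0.29 for Krt84, so their direction depends on the scaling. Of 13 alternatives for Krt75, 6 lost the call and 1, the scaling by library size, reversed its sign. Without PWD21 library 2 neither Krt75 nor Krtap3-2 was called. Among the regulators Lef1 (-1.67), Foxn1 (-1.35), Msx2 (-2.18), Wnt10b (-1.5), Vdr, Bmp4 and Gli1 were called lower at PWD14 and Gata3 higher, of 17 tested. Of 11 other shaft and sheath genes tested, 6 were lower (Gprc5d, Padi1, Crym, Dsg4, S100a3 and Dsc2) and 3 higher (Sprr1a, Tgm3 and Mt4). Keratinocyte genes summed to 104644 and 118124 CPM at PWD14 and 72552 and 77338 CPM at PWD21, with 2 of 14 called higher and 5 lower. The list of hair follicle stem cell and outer root sheath genes summed to 36088 and 62795 CPM at PWD14 and 6735 and 12004 CPM at PWD21, with Krt17, Krt6a and Sox9 called higher at PWD14 and Lhx2 lower, of 9. Fibroblast genes summed to 968 and 993 CPM against 1840 and 1888 CPM, and sebaceous gland genes to 50.7 and 198 CPM against 277 and 288 CPM, the latter with 3 of 7 called lower at PWD14. The part of these lists in the result was not tested.

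**Figure D3:**
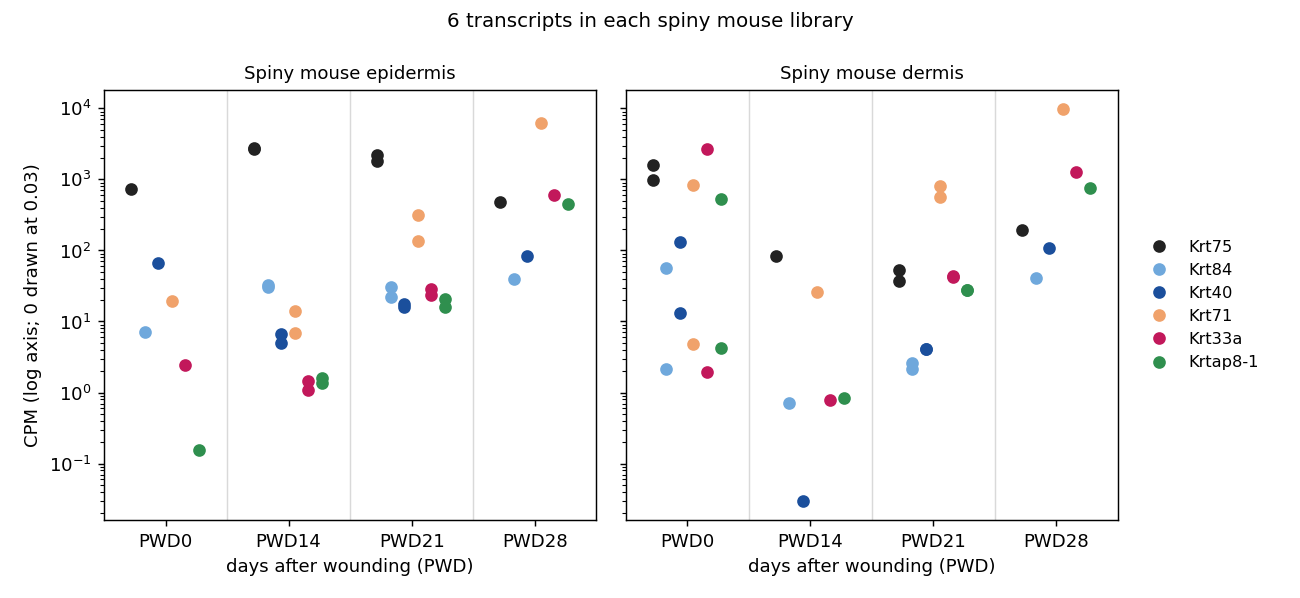
CPM (log scale) of Krt75, Krt84, Krt40, Krt71, Krt33a and Krtap8-1 in each spiny mouse library by post-wound day, 1 point per library, with 0 drawn at 0.03. Krt71, Krt33a and Krtap8-1 were highest at PWD28 in epidermis, whereas Krt75 was lowest there.

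The single PWD28 libraries carried the rise further, and were described without a test. In epidermis 73 of 79 members with a read had their highest level at PWD28, against 18.8% of all genes, and in dermis 53 of 78, against 11.9%. The PWD28 level over the PWD21 mean had a median of 28.0-fold over 72 members in epidermis and 24.4-fold over 76 in dermis, while all genes gave 1.01 and 0.936. In epidermis Krt71 reached 6262 CPM, Krt25 4662 CPM, Tchh 2370 CPM, Krt33a 595 CPM and Krtap8-1 450 CPM. In dermis these genes reached 9721, 6534, 3792, 1274 and 747 CPM. Keratin-associated proteins rose by a median of 34.6-fold over PWD21 in epidermis, and type I and type II shaft keratins by 18.4-fold and 19.5-fold. Krt75 was the 1 member of the 72 below its PWD21 level in epidermis, at 487 CPM, which is 0.242 of it.

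Krt75 had a time course of its own. In epidermis it was at 745 CPM at PWD0, at 1824 CPM or more in each of the 4 libraries of PWD14 and PWD21, and at 487 CPM at PWD28. Unwounded dermis gave 1609 and 968 CPM, PWD14 dermis 82.3 CPM, PWD21 dermis 36.8 and 53.2 CPM and PWD28 dermis 192 CPM. Krt75 belongs to the type II cluster that also holds Krt5, Krt6a and Krt6b, and which spiny mouse gene its reads came from was not tested. Of these relatives Krt6a, a keratin of wounded epidermis, is given, chosen after its values were seen. In epidermis it was at 15 CPM at PWD0 and 7996 and 5856 CPM at PWD14, and in PWD0 dermis at 101 and 48.1 CPM. Krt5, Krt6b and the later days of Krt6a are not given here. These few values cannot decide which gene the Krt75 reads came from.

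In spiny mouse dermis PWD21 wounds were set against unwounded skin. Of 65 members tested, 11 were lower at PWD21 and none higher, below the 26.2% called among 14481 genes, 14.2% lower and 12% higher. The called members were Krt75, Krt35, Krt40, Krt84 and 7 Krtap genes. Krt75 was at 36.8 and 53.2 CPM at PWD21 and 1609 and 968 CPM at PWD0 (log2 difference -4.88 ± 0.45 SE, FDR 0.000371). Krt40, a late cuticle keratin, was at 4.05 and 4.11 CPM against 13.3 and 133 CPM (-4.19 ± 0.88 SE, FDR 0.0109), and Krt35 at 35 and 37.7 CPM against 75.1 and 251 CPM (-2.20 ± 0.50 SE, FDR 0.0145). In these 3 the groups did not overlap, and both PWD0 libraries were the higher. The same held for Krtap16-3, at 0.991 and 0.316 CPM against 1.56 and 12 CPM (FDR 0.0294), and for Krtap22-2, at 1.12 and 0.518 CPM against 1.56 and 4.55 CPM, which did not pass (FDR 0.0786). Altogether 6 of 78 members with a read were lower without overlap and 2 were higher, against 27.2% and 32.5% of all genes.

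Most other members could not be placed, because the PWD0 libraries lay on either side of PWD21. Krtap15, a high-sulfur protein, was at 3.12 and 2838 CPM at PWD0 and 12 and 10.01 CPM at PWD21 (-7.04 ± 2.11 SE, FDR 0.0404). Krt33a was at 1.95 and 2653 CPM against 42.9 and 43.9 CPM (FDR 0.0939), and Krt81, a type II keratin of the cortex, at 3.12 and 2381 CPM against 36.7 and 47.7 CPM (FDR 0.0874). Krt71 at 4.87 and 824 CPM against 564 and 815 CPM (FDR 0.730), Krt25 at 4.29 and 1183 CPM against 593 and 598 CPM (FDR 0.992) and Tchh at 1.95 and 858 CPM against 190 and 334 CPM (FDR 0.743) spanned the PWD21 values as well. Padi3 was at 1.56 and 4.83 CPM at PWD0 and 6.03 and 14.1 CPM at PWD21 (1.59 ± 0.62 SE, FDR 0.0905). Without PWD0 library 1, 62 members were called lower. Without PWD0 library 2, 43 were called higher and 3 lower, and without either PWD21 library only Krt75 was called. Keratinocyte genes fell with the called members, 12 of 14 lower, from 7801 and 13945 CPM to 687 and 1330 CPM, and fibroblast genes rose, 9 of 15. Stem cell and outer root sheath genes fell too, 5 of 9, from between 11019 and 22947 CPM to between 724 and 780 CPM, with Lgr5 called higher, and so did sebaceous gland genes, 4 of 7, from between 1594 and 1947 CPM to between 194 and 294 CPM. Their part in the result was not tested.

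PWD0 dermis library 2 did not have the make-up of PWD28 dermis. Over 75 members its level divided by that of PWD28 had a median of 0.531, against 0.993 over 14139 genes. The ratio was 2.48 for the 15 high-sulfur keratin-associated proteins, 12 of them above 1, and 0.313 for 10 high glycine-tyrosine ones, none above 1. It was 1.24 and 1.47 for type I and type II shaft keratins, and 0.123 and 0.0783 for type I and type II inner root sheath keratins. Its most abundant members were shaft genes such as Krtap15 at 2838 CPM, Krt33a at 2653 CPM and Krtap13-1 at 2423 CPM, where PWD28 had 566, 1274 and 325 CPM.

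The reads of sheath keratins over those of shaft keratins separate the same libraries. This ratio was 3.34 and 2.69 in laboratory mouse margin dermis, and in spiny mouse dermis 0.123 and 0.235 without a wound, 6.16 on PWD14, 6.29 and 6.03 on PWD21 and 3.07 on PWD28. Unwounded dermis therefore had the 2 lowest ratios of spiny mouse dermis, although its libraries were far apart in summed level. The shaft reads came from different genes, with Krt35 giving 385 of 594 in library 1 and 1820 of 95919 in library 2. The ratio of library 1 also rests on 73 sheath reads. In spiny mouse epidermis the ratio was 0.878 without a wound, then 1.15 and 1.84 on PWD14, 4.53 and 2.03 on PWD21 and 4.42 on PWD28. Krt84 alone gave 302 of 408 and 362 of 522 shaft reads on PWD14, and 1090 of 8507 and 425 of 4644 on PWD21. The rise from PWD14 to PWD21 therefore depends on counting Krt84 as a shaft keratin. In laboratory mouse epidermis the ratio was 0.0440 and 0.0612 in the center and 1.11 and 4.69 in the margin. The center values rest on 21 sheath reads in each library, over 477 and 343 shaft reads mostly of Krt32, Krt84 and Krt82. Among the reads of keratin-associated proteins, high-sulfur, high glycine-tyrosine and ultrahigh-sulfur families took 48.5%, 29.0% and 16% in PWD28 dermis and 48.3%, 29.1% and 15.5% in PWD28 epidermis. In laboratory mouse margin dermis the shares were 41.4%, 28.0% and 22.3% in library 1 and 43.3%, 33.0% and 17.4% in library 2. In PWD0 dermis library 2 they were 83.8%, 10.7% and 4.99%. The families were assigned by number, not from protein sequence, after values had been seen.

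**Figure D4:**
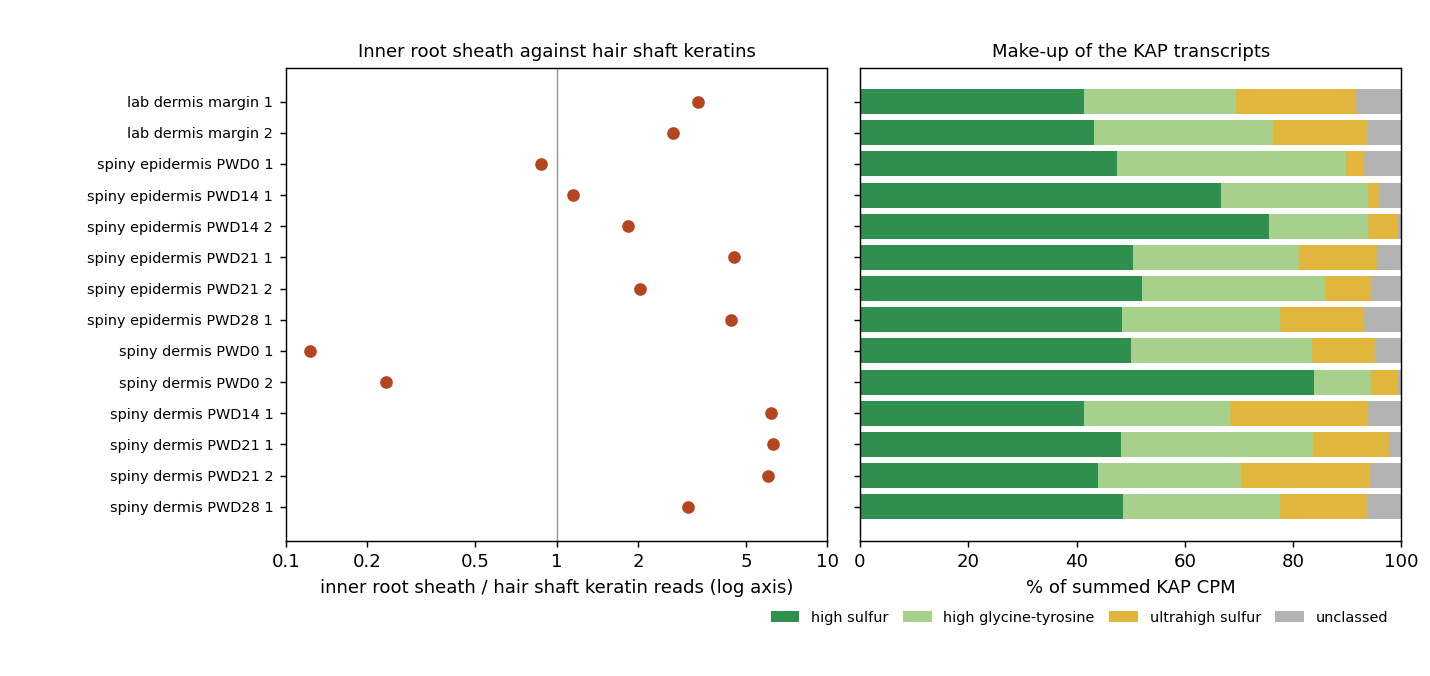
Ratio of inner root sheath to hair shaft keratin reads (log scale) and percentage of keratin-associated protein CPM in each family class, for the laboratory mouse margin dermis and all spiny mouse libraries. Unwounded spiny mouse dermis has ratios of 0.123 and 0.235, and its library 2 has 83.8% high-sulfur reads.

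At PWD21, spiny mouse epidermis was also compared with dermis of the same day. Of 66 members tested, 3 were higher in epidermis and 24 lower, against 29.4% and 33.5% of 14966 genes, so that fewer members were called than genes overall (62.9%). The 3 higher ones were all keratins. Krt75 was at 2209 and 1824 CPM in epidermis and 36.8 and 53.2 CPM in dermis (log2 difference 5.67 ± 0.34 SE, FDR 1.15e-05). Krt84 was at 30.5 and 22.3 CPM against 2.11 and 2.59 CPM (3.67 ± 0.30 SE, FDR 4.65e-05), and Krt40 at 15.9 and 17.8 CPM against 4.05 and 4.11 CPM (2.22 ± 0.25 SE, FDR 0.000221).

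Members called lower in epidermis came from every class other than the companion layer keratin. Of the 79 members with a read, 57 were lower in epidermis without overlap (72.2%) and 3 higher (3.8%). The shares of all genes with a read were 42.0% and 31.0%. Krt71 was at 312 and 138 CPM in epidermis and 564 and 815 CPM in dermis (-1.42 ± 0.40 SE, FDR 0.0171), and Tchh at 106 and 50.2 CPM against 190 and 334 CPM (-1.55 ± 0.41 SE, FDR 0.0129). Tchhl1 was at 0.280 and 0.420 CPM against 2.71 and 3.57 CPM (-3.04 ± 0.46 SE, FDR 0.000879). Krt33a differed by -0.57 ± 0.20 SE (FDR 0.0397) and Krt87, another shaft keratin, by -0.56 ± 0.20 SE (FDR 0.0442). Krt25 at 366 and 161 CPM against 593 and 598 CPM (FDR 0.0543) and Krtap8-1 at 20.7 and 15.9 CPM against 27.4 and 28.0 CPM (FDR 0.164) did not pass. Of 38 keratin-associated proteins tested 11 were called lower, with the largest differences in Krtap4-2 (-2.93), Krtap9-1 (-2.28), Krtap6-2 (-2.19) and Krtap10-10 (-1.88), none of which exceeded 8.14 CPM in any PWD21 library. All 14 keratinocyte genes were higher in epidermis and 14 of 15 fibroblast genes were lower, with Thy1 the exception. Among the regulators Foxn1, Foxq1, Gata3, Hr, Ovol1, Prdm1 and Wnt10b were higher in epidermis, and Lef1, Msx1, Bmp4, Bmpr1a and Gli1 in dermis. The calls numbered 16 without epidermis library 2 or without dermis library 2, and 43 without dermis library 1.

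**Figure D5:**
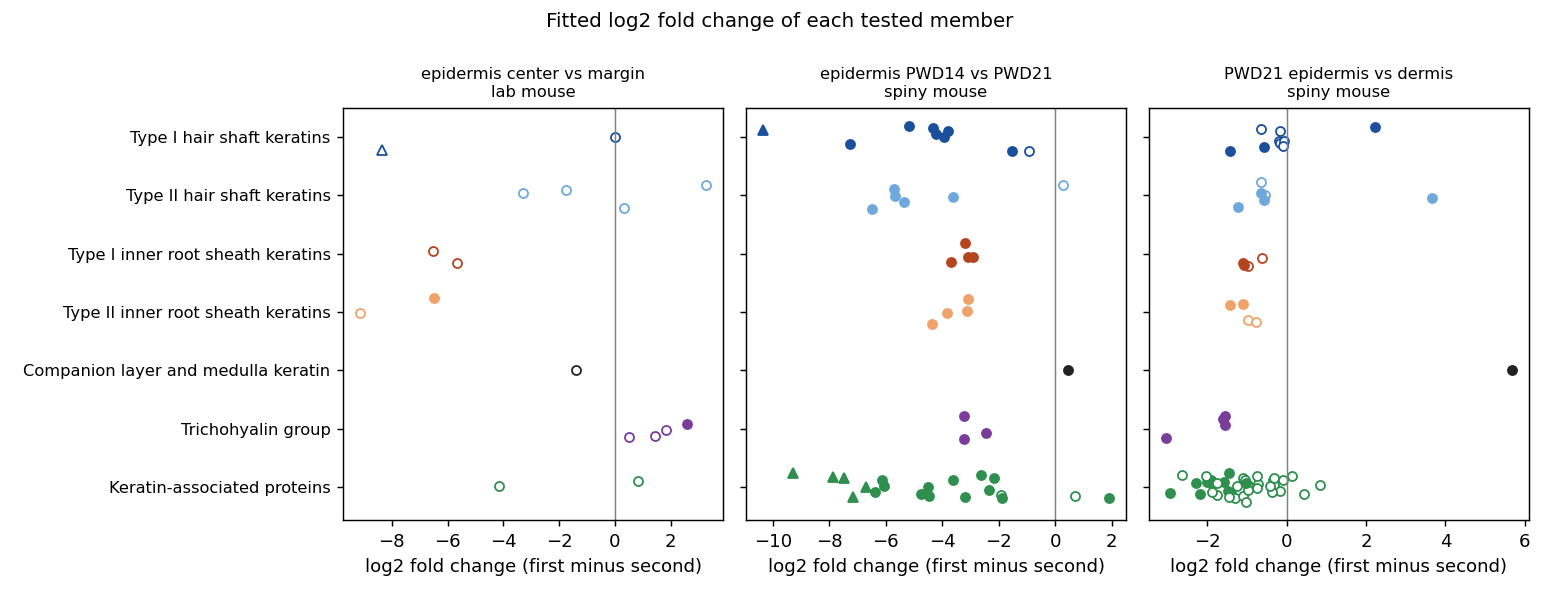
Fitted log2 differences of the tested members (1 mark each, horizontal axis) by class in 3 comparisons, with filled marks for FDR under 0.05 and triangles where a group was at 0, so that the value depends on the prior count. Laboratory epidermal members lie on both sides of 0, most spiny mouse epidermal members lie below 0 at PWD14 against PWD21, and Krt75 lies at 5.67 in epidermis against dermis.

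Species differed in which members had reads at all. No laboratory mouse library had a read of Krtap20-2 or Krtap5-1, and no spiny mouse library had one of Krtap31-1, Krtap31-2 or Krtap9-5. In laboratory mouse margin dermis those 3 were at 4.81 and 1.42 CPM, 3.63 and 2.405 CPM, and 2.93 and 1.498 CPM. Krtap19-5, at 6.03 and 5.01 CPM there, had 0.0280 CPM in 1 spiny mouse library and 0 in the other 11. Whether spiny mouse reads of these genes would align to the mouse genome was not tested. Within the laboratory mouse, Krtap31-1, Krtap31-2, Krtap9-5 and Krtap19-5 were at 0 in all libraries other than the 2 of margin dermis.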

How the data were processed

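RNA sequencing counts of 25 libraries were used. The authors deposited raw counts of reads per gene, made with STAR and HTSeq 0.6.0 on mouse build mm10 with RefSeq genes, spiny mouse reads included. The submitters' processing notes name STAR 2.4.1d. Each file lists 24500 genes and 5 summary lines, which were left out of library sizes. The members and lists were chosen with earlier results of these data known.

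Groups came from the labels. CPM with TMM factors were computed here within each species and tissue. Each of 6 comparisons, and the interaction, was tested with edgeR 4.0.16 in R 4.3.3 (glmQLFit and glmQLFTest, TMM on the libraries compared, filterByExpr, prior count 0.125) with Benjamini-Hochberg adjustment over all genes tested. Standard errors belong to log2 differences. The scripts were tested on simulated data. Alternatives were DESeq2 1.42.0, edgeR's likelihood ratio and exact tests, other scalings and filters, other sets of libraries and leaving out each library; scaling by library size alone was chosen after seeing the data.

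Named genes were, per comparison, the highest member of each class by mean CPM, up to 5 members per direction with the largest differences among called, non-overlapping members of at least 1 CPM, and called genes of the regulator and other shaft lists; remaining names were chosen after their values were seen. Protein sequences were not used here. Bounds and floors rest on 3 counts per library and cover counting error only.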

Additional observations from a re-analysis of the deposited data

Results flagged for a closer look

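Among the 5 WT center dermis libraries of laboratory mice, 12 of 19 values had 1 library far above the other 4. In 11 of these the other 4 libraries had no read, so the gap fills the whole range by construction and the usual chance rate of about 1 in 20 does not apply. The sums also repeat single genes, since Krt71, Krt75 and Krtap3-2 make up the first 3. The summed levels were 0.185 CPM for type II inner root sheath keratins, 0.811 CPM for the companion layer keratin, 0.811 CPM for high-sulfur and 1.70 CPM for ultrahigh-sulfur keratin-associated proteins. The single genes were Krt28 at 2.03 CPM, Krt71 at 0.185 CPM, Krt75 at 0.811 CPM, Krt83 at 2.08 CPM, Krt86 at 1.03 CPM, Krt87 at 0.849 CPM, Krtap3-2 at 0.811 CPM and Tchhl1 at 2.85 CPM. Each value was below that of the same gene or class in both margin dermis libraries. The ultrahigh-sulfur sum came from Krtap4-6 alone, in center library 2. That gene was at 3.46 and 1.58 CPM in the margin dermis libraries, so the regions overlapped for it.

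The center-margin difference differed between epidermis and dermis by the interaction test of edgeR in 5 members. The log2 difference, epidermis minus dermis, was 10.80 for Krt32, 10.48 for Krt75, 14.58 for Padi3, 15.38 for Prr9 and 10.51 for Tchh. Except for Tchh, these genes had no read in either center dermis library, so the sizes depend on the prior count and are neither measured sizes nor bounds.

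The single PWD28 libraries, which entered no test, gave summed member levels of 28303 CPM in epidermis, against 1007 CPM at PWD0, and 46207 CPM in dermis, against 1777 and 30645 CPM at PWD0. Krt75 alone made up 745 of the 1007 CPM and 1609 of the 1777 CPM.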

How the results depend on the processing

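Members called in laboratory epidermis, 2 as reported, were 9 with DESeq2, 8 with the likelihood ratio test, 8 with the exact test, 0 with the edgeR 3 estimate, 1 with at least 10 counts in every library, and 0 to 17 leaving out 1 library. In laboratory dermis, 20 became 59, 69 and 53 with DESeq2, the likelihood ratio and the exact test, 0 with at least 10 counts in every library (which left no member to test), 5 with all libraries in one fit, 35 with all 5 WT center libraries, and 5 to 25 leaving out 1 library. For KO every alternative gave 0. Spiny mouse epidermis, 43 as reported, gave 12 with at least 10 counts in every library and 34 to 41 leaving out 1 library. Spiny mouse dermis, 11 as reported, gave 34 and 30 with the likelihood ratio and exact tests and 1 to 62 leaving out 1 library. Epidermis against dermis at PWD21, 27 as reported, gave 43 by library size alone, 5 with all libraries in one fit and 16 to 43 leaving out 1 library. The interaction, 5 as reported, gave 3 to 10 leaving out 1 library. Without TMM the mean summed levels were 1614 CPM in margin dermis, 1225, 2111 and 37184 CPM in spiny mouse epidermis of PWD0, PWD14 and PWD28, and 185 and 53954 CPM in spiny mouse dermis of PWD14 and PWD28. Of 815 log2 differences of single genes under alternatives, 13 reversed, 61 lost and 58 gained a call. Leaving out 1 library, laboratory epidermis gave -0.10 to 0.23 for Krt32 and -0.15 to 2.34 for Krt84, and spiny mouse dermis gave -1.0 to 7.07 for Krt25, -5.94 to 4.43 for Krt33a, -0.27 to 7.10 for Krt71, -5.83 to 3.71 for Krt81, -8.02 to 1.77 for Krtap15 and -1.72 to 7.02 for Tchh. Krt25 there was 0.044 with no low-count filter and 0.0037 with all libraries in one fit. By library size alone, spiny mouse epidermis gave -0.10 for Krt75 and -0.29 for Krt84. The cause of these changes was not tested, other than where fewer genes or libraries entered. Arms left with 1 library were assumed to vary like the others. No paired analysis was possible because the labels give no replicate numbers that tie libraries of different groups. Depth limits members near 0, above all in spiny mouse PWD0 dermis.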
